A study of Saccharomyces cerevisiae with 16 samples.

Results

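The 5 genes TPO1, TPO2, TPO3, TPO4 and TPO5 encode polyamine transporters of budding yeast, and the regions that hold their promoters were followed across 16 calling-card libraries. A region between neighbouring genes was taken as a promoter region of a gene when it lay on the 5′ side of that gene by the strand letter of its systematic name. By this rule each gene had 1 region, which gave 5 of the 4740 chromosomal regions in 15 tables. Among the 4532 regions of the Gal4 library the rule found 4, and TPO3 was not analysed there. The genes were chosen from earlier results of these same insertion counts, so the counts at their promoters are given as a description, and no test was made on them.

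Polyamines (putrescine, spermidine and spermine) are small cations that bind nucleic acids and are kept within narrow limits by synthesis, breakdown, uptake and export. Tpo1, Tpo2, Tpo3 and Tpo4 are membrane proteins of the drug:proton antiporter family that move polyamines out across the plasma membrane, and Tpo1 is also known for exporting drugs and weak acids. Tpo5 belongs to another family, that of amino acid permeases, and acts in Golgi or post-Golgi vesicles.

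In the calling-card assay a transcription factor is tagged with Sir4, a silencing protein that the Ty5 integrase binds, and the places where new Ty5 copies land (insertions) record where the tagged factor sat on DNA. In 12 libraries the strain, labelled BY4741, lacked SIR4 and the chromosomal gene of the factor under study, and carried the tagged factor: Gal4, Leu3, Yrm1, Yrr1, Tea1, Lys14, Cat8, Cha4, Put3, Urc2, Hal9 or Aro80. All are zinc cluster proteins, a fungal class of DNA-binding regulators. In 4 more libraries tagged Gal4 was used in cells without SIR4, GAL4 and, in turn, HMO1 (labelled BY4742), LEU3 (BY4743), SEF1 (BY4744) or YRM1 (BY4745), so that strain name and deletion cannot be told apart. In all 16 the tagged factor came from a plasmid with the ADH1 promoter and not from the factor's own promoter, and Ty5 from a plasmid with the galactose-inducible GAL1/10 promoter.

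Each group had 1 library, of 18295 (Cha4) to 36063 (Leu3) insertions for the factors and 6932 (hmo1Δ) to 13882 (sef1Δ) for the Gal4 libraries with a further deletion. No value therefore has a replicate error, and every interval is a 95% interval for counting error only. Levels are insertions per 100000 in the library, and the fold divides that level by the level in the authors' background set of insertions. A call required 5 or more insertions and a deposited hypergeometric p of at most 0.001. As a check of the labels, the pooled promoters of GAL genes and other known Gal4 targets (8 regions) stood at 26.5-fold to 46.8-fold in the Gal4, hmo1Δ, sef1Δ and yrm1Δ libraries. In the library labelled leu3Δ they stood at 1.07-fold (0.733 to 1.53), so that this library went against its Gal4 label. Its levels at TPO1 to TPO5 are described apart from the rest, but counts, orders and shares over all 16 libraries include it. Most regions sat below 1: among regions with at least 10 background insertions the median fold was 0.484 in Hal9, 0.316 in Yrm1 and 0.147 in Gal4.

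The promoter regions differed in what they could show. The TPO1 region (FRA1/TPO1, chromosome XII 83710 to 84804) was 1094 bp long and held the promoter of TPO1 alone, since FRA1, a repressor of iron uptake genes, is read toward it. The TPO4 region (TPO4/MOD5, chromosome XV 836431 to 837674, 1243 bp) lay between divergent genes and also held the promoter of MOD5, a tRNA-modifying enzyme. The TPO2 region (TPO2/CBF2, chromosome VII 765606 to 767429, 1823 bp) was shared with the kinetochore gene CBF2. The TPO3 region (TPO3/CUR1, chromosome XVI 839777 to 843262) was the longest at 3485 bp, was shared with CUR1 and contained the whole gene TDA6 (841266 to 842669). The TPO5 region (TPO5/SNU114, chromosome XI 122236 to 122517) was only 281 bp long and was shared with SNU114, a splicing factor gene. Insertions in the 4 divergent regions cannot be assigned to either neighbour. These are the coordinates of the 15 tables as deposited. Their edges equal gene ends of the R64 assembly, although the submitters' processing notes name sacCer2.

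Background insertions also differed, at 46 for TPO1, 43 for TPO2, 83 for TPO3, 55 for TPO4 and 5 for TPO5, where the median region held 6. Per length, the background was 49.99 insertions per 100000 per kb at TPO1 and 52.6 at TPO4, against 28.0 at TPO2, 28.3 at TPO3, 21.2 at TPO5 and 18.1 over all regions pooled. The 2 regions that were called in any library, TPO1 and TPO4, thus had the highest background per length of the 5. The part of that background in the calls was not tested.

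TPO1 received more Hal9 insertions than any other region. Hal9 is a zinc cluster factor linked to salt tolerance. It placed 1681 of its 18746 insertions at TPO1, which is 8.97% of the library and 8967 per 100000, against 54.7 per 100000 in the background (164-fold, 122 to 225). This was rank 1 of 4740 regions in that library, and the next region, at the NADPH dehydrogenase gene OYE2 (STB5/OYE2), held 392. In Hal9, 2 of the 5 transporter regions were called, where 2.05% of all regions were.

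The other levels at TPO1 were far lower. Yrm1, a regulator of multidrug resistance genes, placed 105 insertions there (335 per 100000, 6.12-fold, 4.29 to 8.86). Gal4 placed 60 (178 per 100000, 4.52-fold), Tea1 62 (174 per 100000, 3.18-fold) and Leu3 46 (128 per 100000, 2.33-fold, 1.52 to 3.59). These 4 libraries and Hal9 were the factor libraries in which TPO1 was called, although the Leu3 call was lost with a rule of at least 3-fold in place of the p. Of all regions, 2.38% were called in Yrm1, 1.83% in Gal4, 2.38% in Tea1 and 2.28% in Leu3.

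In the remaining 7 factor libraries TPO1 was not called. Put3 held 25 insertions there (105 per 100000, 1.92-fold, 1.13 to 3.20), and 29 would have been needed for a call. Yrr1 held 20 (1.29-fold), Urc2 18 (1.20-fold), Lys14 17 (1.31-fold), Cat8 12 (0.917-fold) and Cha4 10 (0.999-fold). The intervals of these 5 folds all included 1. The median fold over regions with at least 10 background insertions was 0.371 in Yrr1, 0.858 in Urc2 and 0.728 in Lys14. It was 0.859 in Cat8 and 0.657 in Cha4, so a fold near 1 stood farthest above the median in Yrr1. Aro80, a regulator of aromatic amino acid breakdown, was lowest with 5 insertions (19.1 per 100000, 0.349-fold, 0.108 to 0.876), below the background level but with a median of 0.567 for deep regions in that library.

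The order of the levels at TPO1 was steep at the top and more gradual below. The Hal9 level was 26.8 times that of Yrm1 (22.0 to 32.9), and the Yrm1 level was 1.72 times that of the next library, Gal4 in sef1Δ (1.12 to 2.73). For each of the 13 following steps in the order of the 16 libraries, the interval of the ratio between neighbours included 1. Over these steps the level nonetheless fell from 194 per 100000 (sef1Δ) to 19.1 (Aro80), so the libraries below Yrm1 were not alike.

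**Figure D1:**
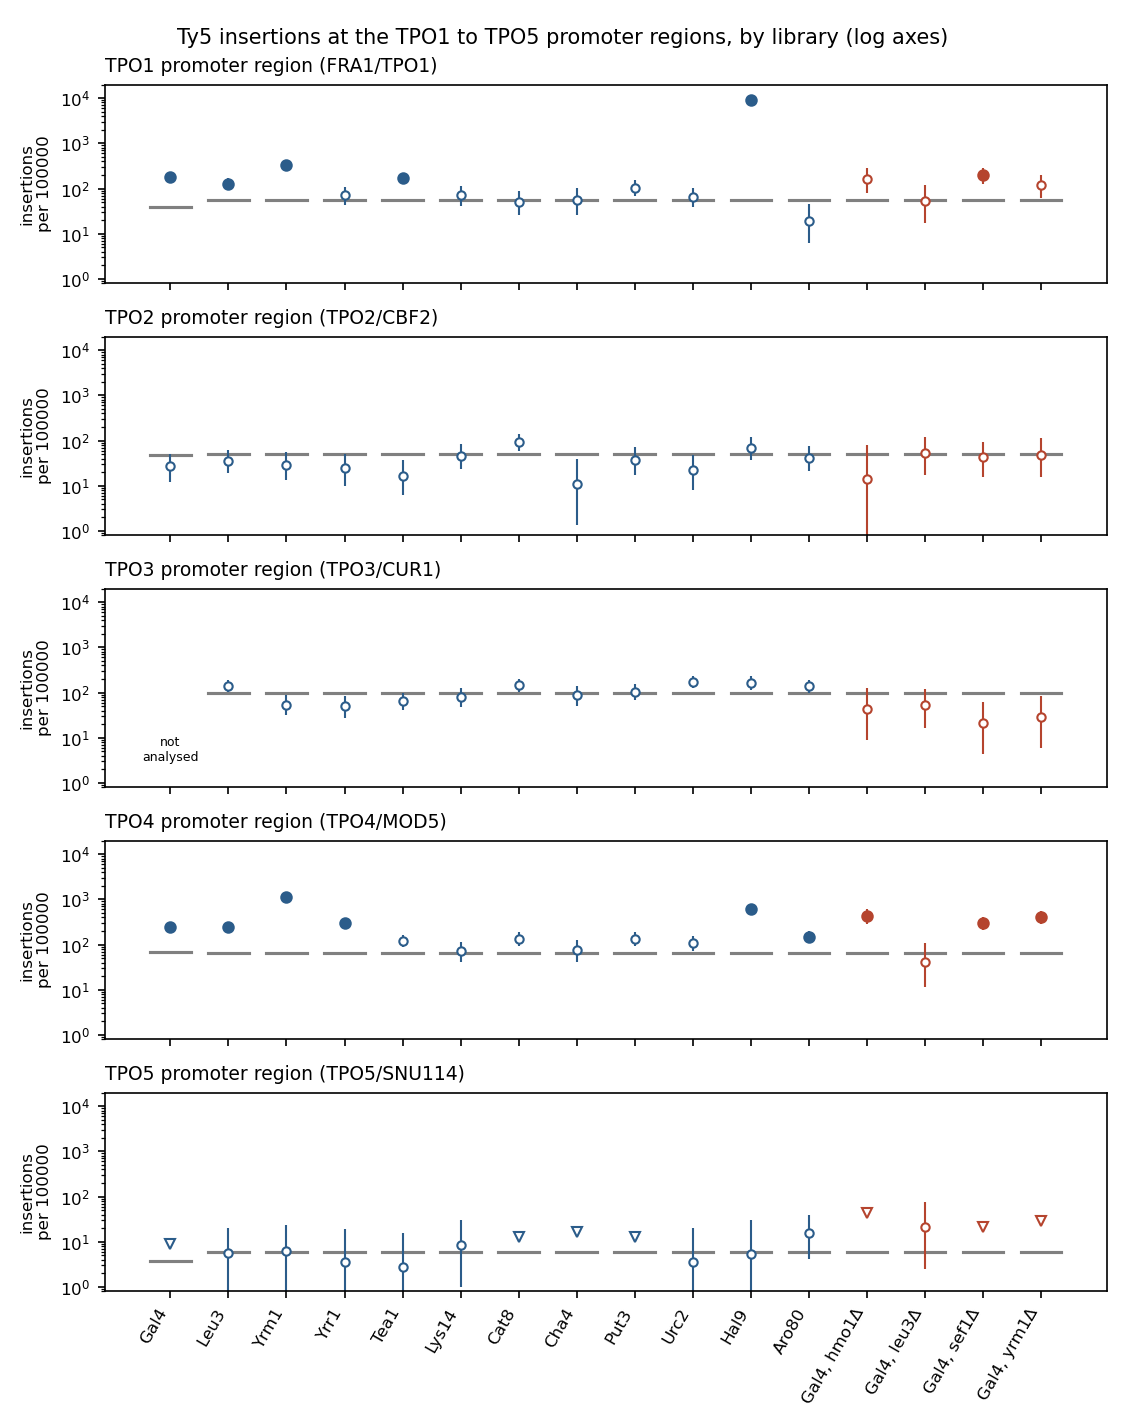
Insertions per 100000 (log axis) at each of the 5 promoter regions in each of the 16 libraries, in blue for the factor libraries and red for Gal4 with a further deletion. Bars are 95% Poisson intervals for counting error, filled points were called, open points were not, grey lines are the background level and open triangles mark libraries with 0 insertions at the level that 3 insertions would give. TPO1 in Hal9 stands at 8967, and all points of TPO2, TPO3 and TPO5 are open, since none was called.

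Hal9 insertions exceeded the background not only in the TPO1 promoter but on both sides of it. Upstream of FRA1, the region GPI13/FRA1 began 2.25 kb away and held 34 Hal9 insertions (9.53-fold, 5.12 to 18.5). Beyond the TPO1 coding region, 1.76 kb away, TPO1/ISA1 held 38 (7.10-fold, 4.15 to 12.4), and ISA1/HSP104, 3.35 kb away, held 15 (11.2-fold, 4.11 to 35.3). All 3 were called in Hal9 and in none of the other 15 libraries, in which they held at most 7, 8 and 5 insertions. ISA1 encodes an iron-sulfur cluster assembly factor and HSP104 a protein disaggregase.

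The excess was smaller farther away. HSP104/PAU17, 6.55 kb from the edge of the TPO1 region, held 15 Hal9 insertions (2.04-fold, 1.03 to 3.86) and was not called. YLL032C/GPI13 and IRC19/YLL032C, farther upstream, held 0 in Hal9 and 0 in the background. The Yrm1 library, with the next highest level at TPO1, held 1 insertion at GPI13/FRA1, 3 at TPO1/ISA1 and 0 at ISA1/HSP104. Whether the Hal9 insertions beside TPO1 come from binding at TPO1 or at sites of their own was not tested.

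**Figure D2:**
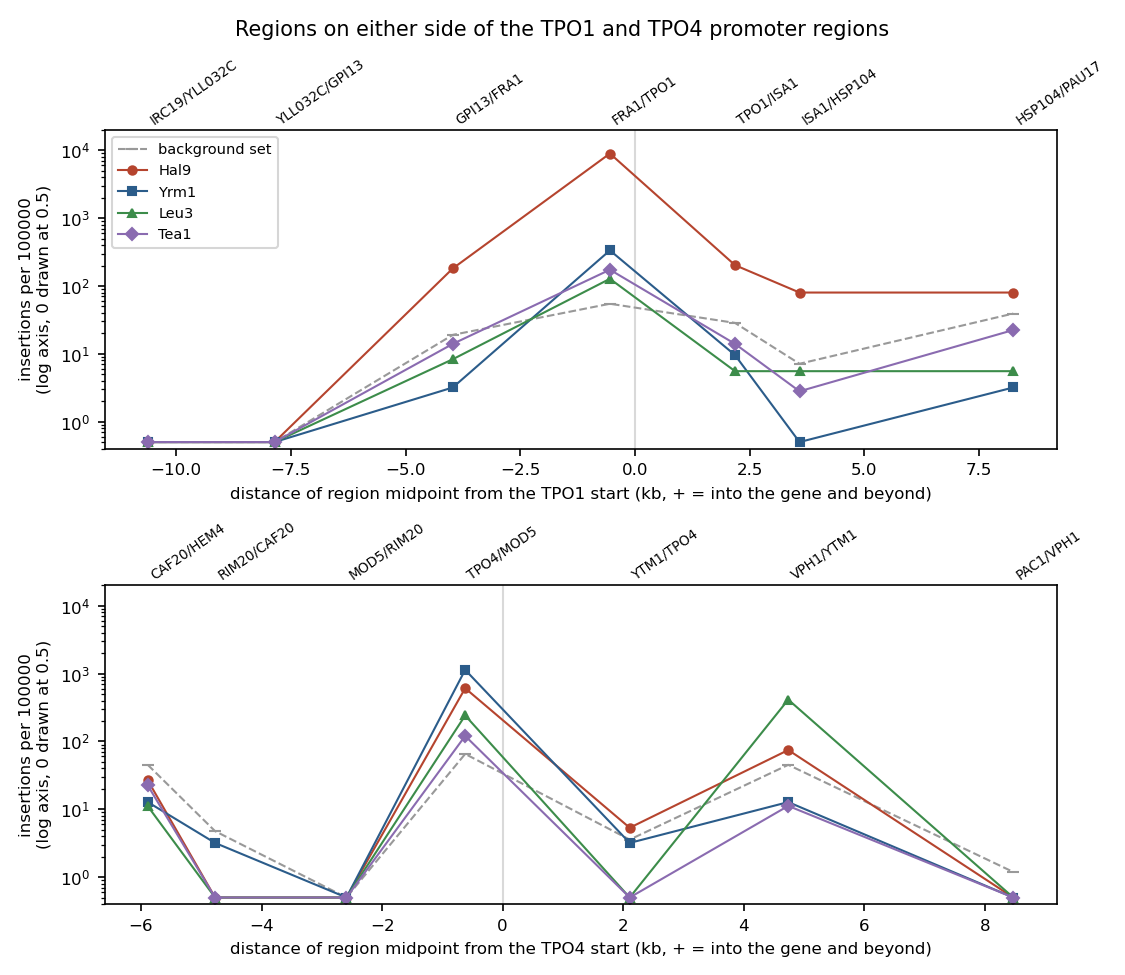
Insertions per 100000 (log axis, 0 drawn at 0.5) in the promoter region and in 3 regions on each side of TPO1 (top) and TPO4 (bottom), against the distance of the region's midpoint from the start of the gene in kb, with the background set as a dashed line. At TPO1 the Hal9 line is above the background in the adjoining regions, with 34 insertions in GPI13/FRA1 and 38 in TPO1/ISA1, and at 0 in the 2 outermost upstream regions, where the background is also 0. At TPO4 the Leu3 line has a further peak of 149 insertions in VPH1/YTM1.

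The highest level at TPO4 was lower than that at TPO1. TPO4 was called in 6 of the 12 factor libraries and TPO1 in 5, and 0.502% of the 4383 regions that all libraries share were called in 5 or more. With a threshold of 0.0001 both were called in 5 factor libraries, and with 0.01 TPO4 in 9 and TPO1 in 6. Of the 4383 shared regions, 5 were called for more factors than TPO4 and 12 for more than TPO1. Yrm1 was highest, with 356 insertions (1135 per 100000, 17.4-fold, 13.0 to 23.5), followed by Hal9 with 114 (608 per 100000, 9.30-fold, 6.68 to 13.1). Yrr1, a relative of Yrm1, placed 85 there (300.2 per 100000, 4.59-fold, 3.23 to 6.57), where 1.84% of all regions were called in that library.

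Gal4 and Leu3, activators of galactose use and of leucine synthesis, held like levels at TPO4. Gal4 placed 84 insertions (250 per 100000, 3.55-fold, 2.57 to 4.93) and Leu3 87 (241 per 100000, 3.69-fold, 2.60 to 5.27), and the ratio of their levels was 1.03 (0.758 to 1.41). Aro80 placed 39 (149 per 100000, 2.28-fold, 1.47 to 3.50), and 1.41% of all regions were called in its library. The Aro80 call was lost with a threshold of 0.0001 and with a rule of at least 3-fold in place of the p.

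In 3 more libraries the TPO4 count lay just under the limit for a call. Tea1 held 43 insertions (1.84-fold, 1.21 to 2.80) where 45 were needed, Cat8 32 (2.04-fold, 1.28 to 3.22) where 33 were needed, and Put3 32 (2.06-fold, 1.29 to 3.24) where 33 were needed. In the authors' deposited table the hypergeometric p for these was 0.00217 in Tea1, 0.00137 in Cat8 and 0.00124 in Put3, and by the authors' Poisson p all 3 would be called. Urc2 held 29 (1.62-fold, 0.993 to 2.58), Cha4 14 (1.17-fold) and Lys14 17 (1.09-fold), with intervals that included 1. In Cat8, Cha4, Lys14, Put3 and Urc2 none of the 5 regions was called, and 1.37%, 0.633%, 1.03%, 0.549% and 1.08% of all regions were.

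The step from Yrm1 to Hal9 in the order of TPO4 levels was 1.87-fold (1.51 to 2.33), and the step from Leu3 to Aro80 was 1.62-fold (1.10 to 2.43). At each of the 13 other steps in the order of the 16 libraries the interval of the ratio included 1. Of the 3 neighbouring regions examined on each side of TPO4, VPH1/YTM1 was called for Leu3 and there were no other calls. The region on its 3′ side, YTM1/TPO4, held 0 or 1 insertion in each of the 16 libraries, and MOD5/RIM20, on the other side, held at most 1. The background set held only 3 insertions (5 in the Gal4 table's set) at YTM1/TPO4 and 0 at MOD5/RIM20. The Leu3 library held 149 insertions at VPH1/YTM1 (9.14-fold, 6.37 to 13.4), against 14 in Hal9 and 4 in Yrm1. That region lies between divergent genes and holds the promoters of YTM1, a ribosome assembly gene, and of VPH1, a subunit gene of the vacuolar proton pump.

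**Figure D3:**
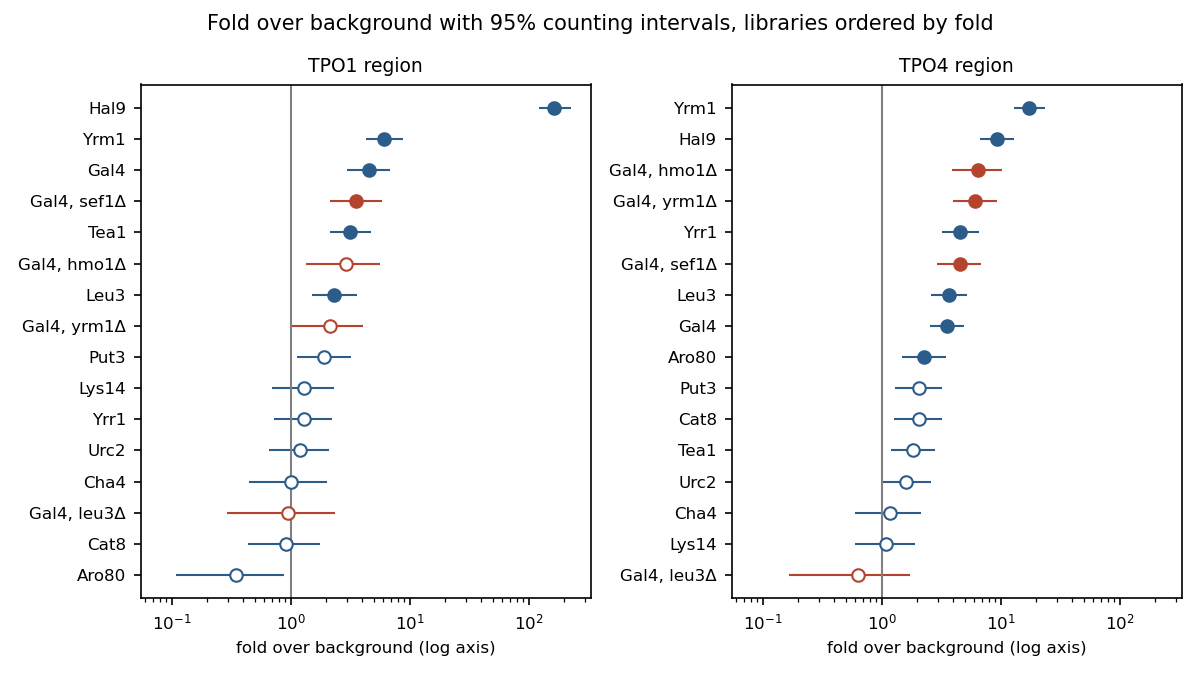
Fold over background (log axis) at the TPO1 region (left) and the TPO4 region (right) for each library, ordered by fold, with 95% exact conditional binomial intervals, filled where called, blue for factor libraries and red for Gal4 with a further deletion. Hal9 leads at TPO1 with 164-fold and Yrm1 leads at TPO4 with 17.4-fold, and the line marks a fold of 1.

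Factors differed in which of TPO1 and TPO4 stood higher. All intervals in this paragraph take the background counts as fixed, so they leave out the counting error of the background. The same background counts serve 15 of the libraries. In Hal9 the TPO1 fold was 17.6 times the TPO4 fold (14.6 to 21.5), and in Tea1 it was 1.72 times (1.15 to 2.61). The TPO4 fold was the larger in Yrm1 (2.84 times, 2.27 to 3.56), Yrr1 (3.55 times, 2.16 to 6.11), Aro80 (6.52 times, 2.57 to 21.2), Leu3 (1.58 times, 1.09 to 2.31) and Cat8 (2.23 times, 1.12 to 4.76). It was also the larger for Gal4 in hmo1Δ (2.20 times, 1.07 to 4.89) and in yrm1Δ (2.86 times, 1.47 to 5.97). With the mean of both background sets the intervals for Leu3 (1.31 times, 0.908 to 1.92), Cat8 (1.85 times, 0.928 to 3.95) and hmo1Δ (1.83 times, 0.887 to 4.06) included 1, and those for Hal9, Tea1, Yrm1, Yrr1, Aro80 and yrm1Δ did not. In Gal4 the ratio of TPO1 to TPO4 was 1.27 (0.898 to 1.79), an interval that included 1, as did those of Lys14, Cha4, Put3, Urc2, sef1Δ and leu3Δ. Over all 16 libraries, 5 called both regions, 1 (Tea1) called TPO1 only, 4 called TPO4 only and 6 called neither. These are not counts of separate factors. The 5 include Gal4 and sef1Δ, the 4 include hmo1Δ and yrm1Δ, and the 6 include leu3Δ, all labelled Gal4. Of all region and library pairs, 1.48% were called. Per length, the Hal9 level was 8197 insertions per 100000 per kb at TPO1 and 489 at TPO4, and the Yrm1 level was 306 and 913.

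TPO2 and TPO3, close paralogs of each other whose induction by weak acids through the activator Haa1 is known, were called in no library. TPO2 held between 2 (Cha4) and 22 (Cat8) insertions in the factor libraries, with a median of 9, and its fold ran from 0.214 to 1.80 with a median of 0.633. Cat8, an activator of genes for non-fermentable carbon, was the only library whose interval lay above 1 (1.80-fold, 1.02 to 3.07), with 22 insertions where 28 were needed for a call. In Tea1 (0.329-fold, 0.114 to 0.776) and Cha4 (0.214-fold, 0.0251 to 0.821) the interval lay below 1. The median over regions with at least 10 background insertions was itself 0.471 in Tea1 and 0.657 in Cha4. Hal9 held 13 insertions at TPO2 (1.36-fold, 0.669 to 2.57) and Yrm1 9 (0.561-fold, 0.241 to 1.17).

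TPO3 held between 14 (Yrr1) and 51 (Leu3) insertions in the 11 factor libraries analysed, with a median of 25, and its fold ran from 0.501 to 1.77. The highest fold was that of Urc2, a regulator of uracil breakdown, with 48 insertions (1.77-fold, 1.22 to 2.56), 1 fewer than a call needed. Hal9 held 31 (1.68-fold, 1.07 to 2.56) where 36 were needed. Yrm1 (17 insertions, 0.549-fold, 0.306 to 0.933) and Yrr1 (14 insertions, 0.501-fold, 0.263 to 0.889) were below the background at TPO3 and above it at TPO4. Both TPO3 folds were still above the median over regions with at least 10 background insertions, which was 0.316 in Yrm1 and 0.371 in Yrr1. These values cover the promoters of TPO3, CUR1 and TDA6 together, so a gain near 1 of them would be diluted.

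TPO5 could hardly be assessed. It held 14 insertions over all 12 factor libraries, at most 4 in any of them (Aro80, 2.57-fold, 0.510 to 11.9), and 0 in Gal4, Cat8, Cha4 and Put3, where 3 insertions, taken as the limit that a count of 0 allows, would stand at 8.92 to 16.4 per 100000. With 5 background insertions (4 in the Gal4 table's set) a call would have required 8 to 12 insertions, a fold of at least 5.60 to 7.36 depending on the library. Enrichment below that size was not detectable at this depth.

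The regions on the 3′ side of the genes were counted as well, but most had too small a background to serve as a comparison. LSB1/TPO2, NCA2/TPO3, YTM1/TPO4 and ZRT3/TPO5 held at most 3, 1, 1 and 0 insertions in any of the 16 libraries and were never called. The background set held 3, 1, 3 and 0 insertions there (5, 4, 5 and 0 in the Gal4 table's set). Low counts were therefore likely in any case, and they do not show that insertions favoured the promoter side. TPO1/ISA1 was the exception, with 24 background insertions (11 in the Gal4 table's set), and its call was the Hal9 call described above.

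The Gal4 libraries with a further deletion ask whether Gal4 occupancy at these promoters depends on the missing protein. They share the Gal4 library as their reference, and the ratios compare libraries and not conditions. At TPO1 the Gal4 level of 178 per 100000 compared with 159 in hmo1Δ (11 insertions, ratio 0.890, 0.422 to 1.71), 194 in sef1Δ (27 insertions, ratio 1.09, 0.666 to 1.74) and 117 in yrm1Δ (12 insertions, ratio 0.655, 0.321 to 1.23). TPO1 was called in sef1Δ, where 1.92% of all regions were called, and not in hmo1Δ or yrm1Δ, where 13 and 16 insertions would have been needed.

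At TPO4 the Gal4 level of 250 per 100000 compared with 418 in hmo1Δ (29 insertions, ratio 1.68, 1.06 to 2.58), 399 in yrm1Δ (41 insertions, ratio 1.60, 1.07 to 2.35) and 295 in sef1Δ (41 insertions, ratio 1.18, 0.794 to 1.74). TPO4 was called in all 3, at 6.40-fold, 6.10-fold and 4.52-fold over background, where 1.22%, 1.5% and 1.92% of regions were called. The yrm1Δ strain lacked the gene of the factor with the highest TPO4 level. Whether Gal4 insertions at TPO4 depend on Yrm1 was not tested. At TPO2 the 3 libraries held 1 to 6 insertions and at TPO3 3 each. TPO5 held 0 in each of them.

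In the library labelled leu3Δ, both regions were at the background level, with 5 insertions at TPO1 (0.95-fold, 0.294 to 2.38) and 4 at TPO4 (0.635-fold, 0.167 to 1.72). Relative to the Gal4 library the ratio was 0.291 (0.0913 to 0.718) at TPO1 and 0.166 (0.0443 to 0.442) at TPO4. Scaled to the median ratio over regions, these were 0.183 and 0.105. None of the 5 regions was called in it, and 0.148% of all regions were. TPO2 and TPO3 held 5 insertions each and TPO5 2.

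**Figure D4:**
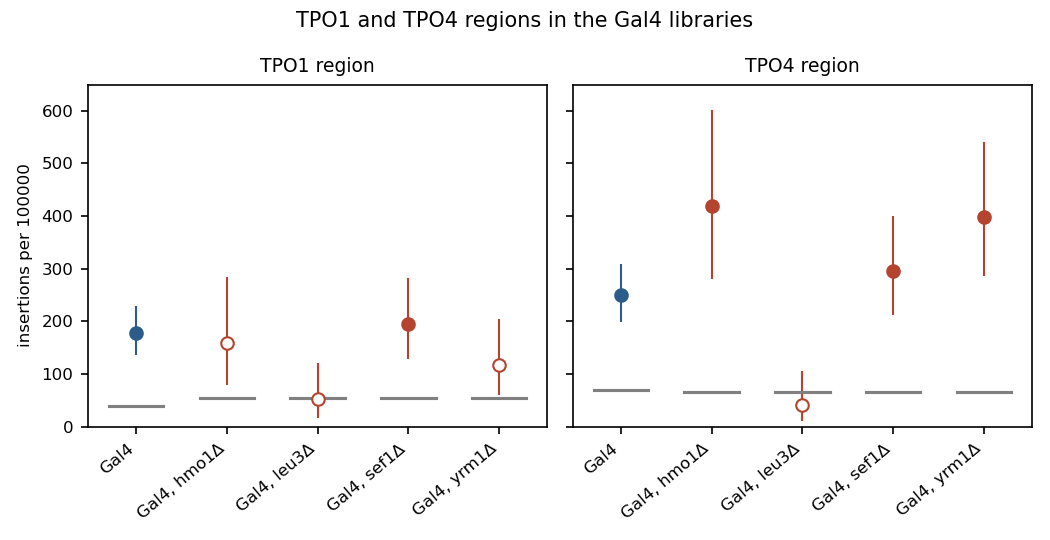
Insertions per 100000 at the TPO1 region (left) and the TPO4 region (right) in the Gal4 library (blue) and in the 4 Gal4 libraries with a further deletion (red), with 95% Poisson intervals, filled where called, and grey lines for the background level. TPO4 stands at 250 in Gal4, 418 in hmo1Δ, 295 in sef1Δ and 399 in yrm1Δ, while both regions lie at the grey line in leu3Δ.

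Calls at other genes of polyamine biology were few in number. The shares for synthesis and breakdown, uptake and hypusine rest on 3, 2 and 2 calls. They are too few to be read as a difference from the share of all regions, which also covers regions without a promoter. In the list for synthesis and breakdown (SPE1, SPE2, SPE3, SPE4, OAZ1, FMS1, MEU1 and CAR1), 3 of 128 pairs of gene and library were called (2.34%), against 1.48% of all region and library pairs. Among the libraries that called TPO1 or TPO4, only Tea1 called a gene of this list. That was SPE1, ornithine decarboxylase at the head of the pathway, with 32 insertions (2.69-fold, 1.57 to 4.64), a call that was lost with a threshold of 0.0001. None of these 8 genes was called in Hal9, where their median fold was 0.160, or in Yrm1, where it was 0. Over all regions with at least 10 background insertions the median was 0.484 in Hal9 and 0.316 in Yrm1. SPE3, SPE4, OAZ1 and FMS1 held only 3 to 5 background insertions in these tables, so that a count of 0 was likely there in any case.

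For polyamine uptake and its control, 2 of 96 pairs were called (2.08%). They were SKY1, a protein kinase that affects polyamine uptake, in Yrr1 (21 insertions, 3.28-fold, 1.68 to 6.46) and the general amino acid permease gene GAP1 in Leu3 (54 insertions, 1.83-fold, 1.25 to 2.64). Both calls were lost with a threshold of 0.0001. SAM3 and UGA4 had no region by the rule. In the list for hypusine, a spermidine-derived residue of the translation factor eIF5A, 2 of 64 pairs were called (3.13%), both at HYP2, which encodes that factor. Leu3 held 54 insertions there (1.88-fold, 1.29 to 2.73) and Yrm1 47 (1.88-fold, 1.27 to 2.77). Both HYP2 calls were lost with a threshold of 0.0001.

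Of the DHA1 transporters, the family to which Tpo1 to Tpo4 belong, 4 of 112 pairs were called (3.57%) among the 7 other members with a region. FLR1, a drug exporter gene, was called in Yrr1 (8.76-fold, 6.04 to 12.9), QDR1 in Yrm1 (11 insertions, 5.90-fold, 1.89 to 21.7) and AQR1, a gene for export of acids and amino acids, in Hal9 (25 insertions, 3.20-fold, 1.84 to 5.51). Of these 3, the QDR1 call was lost with a threshold of 0.0001. In the list of other multidrug exporters 15 of 128 pairs were called (11.7%), with 4 genes each in Yrm1 and Yrr1. This list was drawn up with results for those factors known. AZR1 led in Yrm1 with 105-fold (66.5 to 175), and the same gene was at 100.4-fold in Yrr1. The median fold of the 8 listed exporters with a region was 2.43 in Yrm1, 2.03 in Yrr1 and 0.808 in Hal9, against 0.316, 0.371 and 0.484 over all regions with at least 10 background insertions.

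PDR15, which encodes an ABC drug transporter, was called in 6 libraries (Gal4, Yrm1, Hal9, hmo1Δ, sef1Δ and yrm1Δ), of which 4 carried tagged Gal4. In Hal9 it held 130 insertions (12.2-fold, 8.66 to 17.3) and in hmo1Δ 18 (4.55-fold, 2.49 to 7.97). Of the listed genes for known regulators of these transporters, PDR3, an activator of drug resistance genes, was called in Yrr1 (30 insertions, 14.9-fold, 6.08 to 43.6) and GCN4, the activator of amino acid synthesis, in Leu3 (124 insertions, 2.73-fold, 2.09 to 3.57). HAA1, PDR1, WAR1 and STP1 were called in no library, so that 2 of 96 pairs of that list were called (2.08%).

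**Figure D5:**
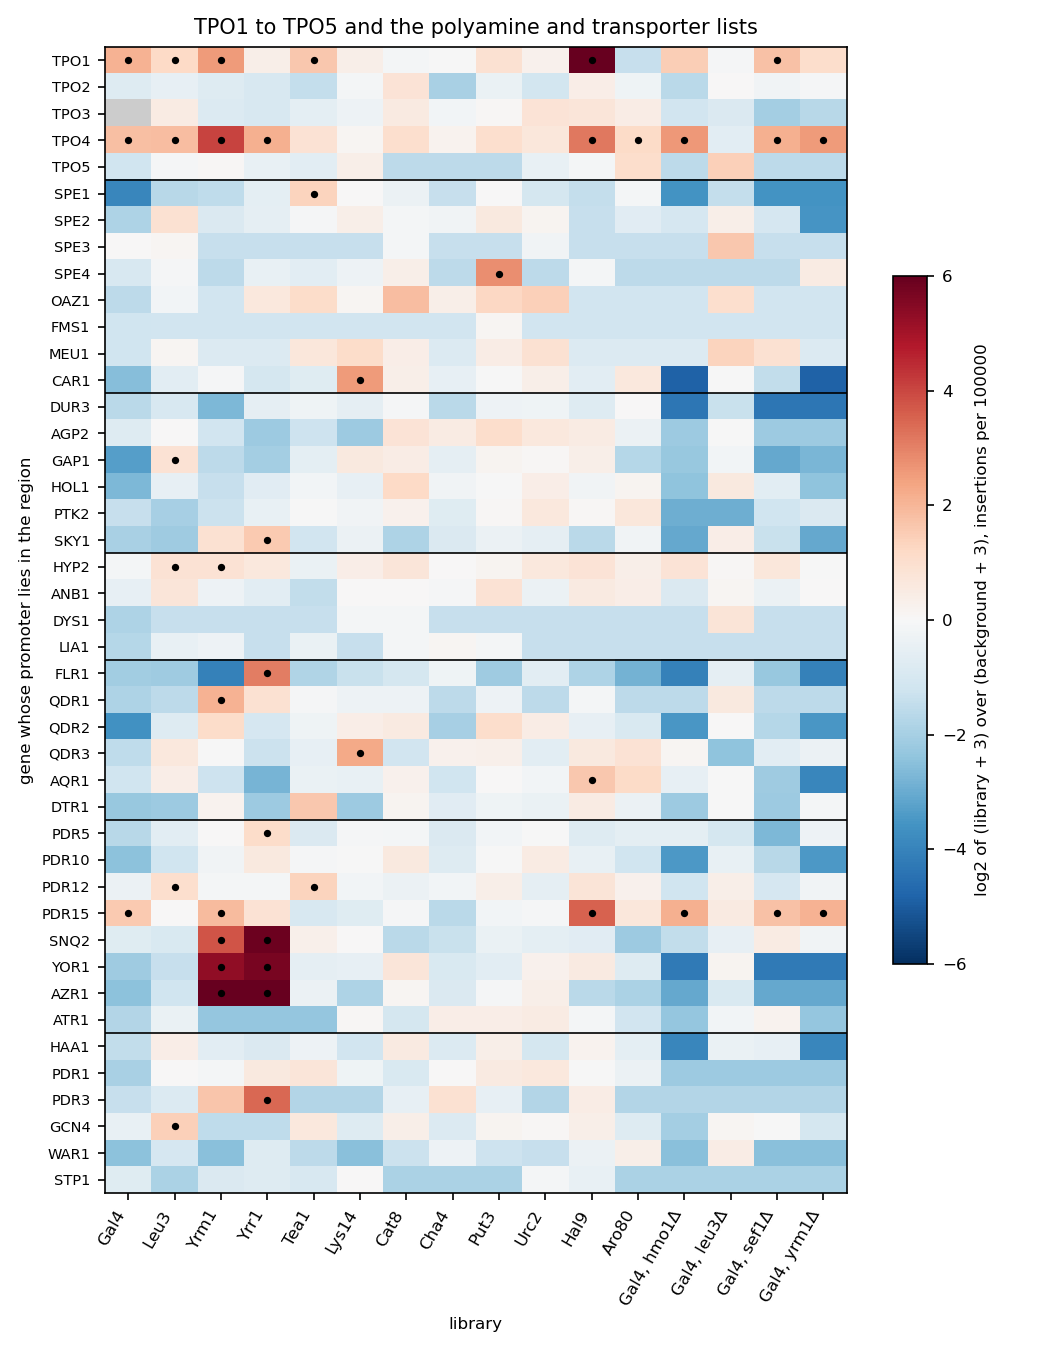
Log2 of the level in the library plus 3 over the background level plus 3, in insertions per 100000, for the promoter regions of TPO1 to TPO5 and of the listed genes (rows, lists separated by lines) in the 16 libraries (columns), with a dot where the region was called and grey where not analysed. Colours stop at 6 on either side, which TPO1 in Hal9 exceeds, and HOL1, which is in 2 lists, is drawn once. Among TPO1 to TPO5, dots lie at TPO1 (6 libraries) and TPO4 (9 libraries) only.

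Profiles over the 12 factor libraries were compared by the correlation of log2 level over background (3 insertions per 100000 added to each) with 800 other regions that held at least 50 insertions in all. For TPO1 the most similar were SCM4/YGR054W (r = 0.87), with 366 insertions in Hal9, MNR2/MSN4 (r = 0.87), which lies at the stress activator gene MSN4 and held 130, and the adjoining TPO1/ISA1 (r = 0.85). TPO1/ISA1 reached the minimum of 50 insertions only through its 38 in Hal9, so its r shows no likeness apart from that library. For TPO4 they were ADH6/FET4 (r = 0.88), WHI5/LPX1 (r = 0.85) and MRP20/PDR15 (r = 0.84). By strand, ADH6/FET4 holds the promoter of ADH6, an alcohol dehydrogenase gene, and WHI5/LPX1 that of LPX1, which encodes a peroxisomal lipase. ADH6/FET4 held 109 insertions in Yrm1 and 61 in Hal9, and WHI5/LPX1 held 42 and 6. At WHI5/LPX1 the Yrm1 insertions alone come close to the minimum of 50, and Yrm1 is the library with the highest TPO4 level. Its likeness to TPO4 apart from Yrm1 was not tested. TPO1 and TPO4 themselves had r = 0.65. These values describe 12 points that share the libraries and, apart from Gal4, the background, and no r was computed without Hal9 or without Yrm1.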

How the data were processed

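The deposited tables give, per region between neighbouring genes, whole-number counts of insertions in the library and in a background set, with wider (laxer) counts beside them. Per the file headers, the authors also gave the fraction of all insertions that fell in a region, a fold ratio of these fractions, a hypergeometric and a Poisson p-value, and a signal scaled to 100000 insertions. The submitters' processing notes name Novoalign and sacCer2, and how insertions were called is not given in the sources used here. The background set held 84109 insertions in 15 tables and 103922 in the Gal4 table. Per the labels, the DNA was cut in 3 separate digests, circularised and amplified by inverse PCR. These reads carry no molecular tags, so intervals cover counting error only.

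Regions off the 16 chromosomes were left out. Levels and folds were computed from the authors' counts (Python 3.11.15, numpy 2.4.6, scipy 1.17.1, pandas 2.3.3, matplotlib 3.10.9). Folds and ratios carry exact conditional binomial intervals and levels Poisson intervals. The authors' hypergeometric p, recomputed from the counts, differed by at most 3.26e-08. The number of insertions needed for a call comes from the same formula. The call rule was tested on simulated data. The members and gene lists were chosen with earlier results of these data known. Genes named from a list were the called gene with the highest fold in each library that called TPO1 or TPO4, at most 4 per list, and for profiles the 3 most similar regions. Alternatives covered the threshold, the minimum, the p column, a 3-fold rule, the laxer counts and the scaling. Protein identity and promoter motifs were planned and are not analysed here, since no sequences were used.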

Additional observations from a re-analysis of the deposited data

Results flagged for a closer look

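In the Hal9 library, the authors' laxer count at TPO1 was 44 insertions above the count within the region edges (1725 against 1681), where the background set gained 1. These insertions lie outside the edges used for every comparison above, and they were picked out because they exceed the background there (197-fold, 33.6 to 7973). In every other pairing of library and transporter region the laxer count added at most 2 insertions.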

How the results depend on the processing

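No paired analysis was possible because each group held 1 library, and for the same reason none could be left out. Of 30 counts of calling libraries under other rules, 28 stayed within 1.5 times. TPO3 was called in 1 library (Urc2) in place of 0 with a threshold of 0.01 and with the Poisson p. TPO4 ran from 8 (threshold of 0.0001, 3-fold rule) to 12 libraries (threshold of 0.01, Poisson p), TPO1 from 5 to 8, and TPO2 and TPO5 were at 0 under every rule. At a threshold of 0.0001, the uptake list and the hypusine list each went from 2 calls to 0. The cause was not tested, although a stricter threshold calls fewer regions by construction (0.0633% to 2.13% of all, against 0.148% to 2.38%). All 45 folds stayed within their intervals when scaled otherwise, at 0.798 to 1.42 times the value given. The ratios of Gal4 deletion libraries at TPO1, TPO2 and TPO4 stayed within their intervals when scaled to the median ratio. That median was 0.67 on the log2 scale in leu3Δ and 0.02 to 0.26 in the others. A limit to regions of matched length (within 20 bp) left these ratios unchanged by construction, since the lengths already matched. The comparison of TPO4 with TPO1 under the mean of both background sets was chosen after seeing the data, and all 16 ratios stayed within their intervals, although 3 of the 9 intervals that had excluded 1 then included it. With 5 background insertions, TPO5 needed 5 to 12 insertions for a call.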

Other observations

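Genes of the polyamine and transporter lists were also called in libraries that called neither TPO1 nor TPO4, and these were picked after their values were seen. SPE4, which encodes spermine synthase, held 14 Put3 insertions (9.91-fold, 3.37 to 35.1). The arginase gene CAR1, whose product makes the polyamine precursor ornithine, held 123 Lys14 insertions (6.13-fold, 4.54 to 8.33), and the transporter gene QDR3 held 18 (5.79-fold, 2.59 to 13.6). Put3 activates proline use and Lys14 lysine synthesis. Outside those libraries, PDR12, a weak acid exporter gene also picked after its values were seen, held 94 insertions in Tea1 (2.55-fold, 1.88 to 3.45) and 77 in Leu3 (2.06-fold).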
